A study of Mus musculus with 6 samples.

Results

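The miR-465 and miR-880 cluster family is a group of miRNA genes on the X chromosome of the mouse. Its members here are the 10 rows of the gene count matrix whose Ensembl identifier has, in GENCODE M21, the name Mir880, Mir881, Mir871, Mir470, Mir741, Mir743, Mir465, Mir465b-1, Mir465c-1 or Mir465c-2, out of 1973 rows. Each row counts the reads of 1 hairpin, so the 5p and 3p miRNAs cut from its arms share a count. The rows Mir465c-1 and Mir465c-2 held the same count in every library, and the 10 rows therefore carry 9 distinct signals. The exosomes came from the medium of HN9.10e cells, a mouse line of immortalized hippocampal neurons of WT genotype grown with fetal bovine serum. Control cells received no treatment and the others 100 nM ceramide (C6-Cer), and exosomes were isolated after 48 h. There were 3 libraries in each group, which the study calls biological replicates, and the labels do not say whether they came from separate cultures, so that p-values measure the spread between these libraries.

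A miRNA is cut from a hairpin precursor and guides repression of messenger RNAs, which it recognizes mainly through its seed, bases 2 to 8. The family belongs to the miR-506 type, a group of X-linked miRNA genes that has multiplied and changed fast in rodents and is best known from the testis, where it is made in germ and Sertoli cells. Closely linked miRNA genes are often cut from a common primary transcript.

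Total counts per library lay between 800810 and 2760015. Of the 1973 rows, 418 passed the filter on low counts and were tested, and all 10 member rows were among them. In GENCODE none of the cluster's hairpins is overlapped by a gene of another type. The labelled cell type was checked on rows of neuronal miRNA genes, of which 10 of the 11 listed had a row, all with counts. Together they held 0.887 to 1.02% of the counts in control and 0.624 to 0.711% in ceramide libraries. Among them under ceramide, Mir138-1 had 2315 ± 214 CPM and Mir124a-1, a row of the main neuronal miRNA miR-124, had 14.7 ± 0.320 CPM (SD, n = 3 each). Estimates were lower in ceramide for 7 of the 10 rows (50.7% of all tested rows) and higher for 3, Mir137 and both Mir9 rows. The 7 include the Mir124a rows, copies with practically the same counts. The 4 rows of blood miRNAs held 0.0317 to 0.0367% in control and 0.0266 to 0.0330% in ceramide libraries. The part of either list in the results was not tested. The libraries of control replicate 1 and ceramide replicate 1 carry lane 1 in their labels, those of control replicates 2 and 3 with lane 4 and those of ceramide replicates 2 and 3 with lane 2. Lanes 2 and 4 thus hold 1 condition each, and only lane 1 allows a comparison within a lane number, of 1 library with 1. The labels do not name the sequencing run, and these 2 libraries and ceramide replicate 2 all carry the same sample number. Whether the lane 1 pair shared a run is therefore not known, and the pair may not be a comparison within a run. The lane term stands for the lane number alone.

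The mature sequences that the results turn on are shown here from RefSeq (GRCm38.p6), 5′ to 3′, with the seed in capitals. All 10 member hairpins were found there, with 18 mature miRNAs and 13 different seeds. The first pair comes from the hairpin that changed most, Mir880, on the minus strand of chromosome X at chrX:66800530-66800607 (GRCm38).
mmu-miR-880-5p: uACUCAGAuugauaugaguca
mmu-miR-880-3p: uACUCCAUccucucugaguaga
The miR-465 copies are shown because their 5p miRNAs differ while their 3p miRNA is 1 sequence, annotated for Mir465 as well as for the b and c copies.
mmu-miR-465a-5p: uAUUUAGAauggcacugauguga
mmu-miR-465b-5p: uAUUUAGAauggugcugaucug
mmu-miR-465c-5p: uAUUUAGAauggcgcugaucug
mmu-miR-465a-3p: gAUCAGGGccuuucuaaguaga
The next pair shares a seed between Mir743 and Mir871, the members with the least difference between the groups along with Mir470, whose miRNA of the 5p arm is shown last.
mmu-miR-743a-5p: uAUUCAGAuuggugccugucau
mmu-miR-871-5p: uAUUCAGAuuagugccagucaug
mmu-miR-470-5p: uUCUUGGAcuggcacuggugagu
Counted from the 5′ end, miR-465a-5p and miR-465c-5p differ by A14G and G20C, miR-465a-5p and miR-465b-5p by C13U, A14G and G20C, and the b and c forms by U13C alone, so all 3 keep the seed. No other mature mouse miRNA among the 1679 in the table carries a seed of a member, apart from further miRNAs of this family (miR-465d-5p and miR-743b-3p). The seeds of miR-880-5p and miR-880-3p occur in no other miRNA of the table.

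The family was an abundant part of the exosomal miRNA in both groups. Its 10 rows held 7.69, 7.85 and 7.34% of all counts in control replicates 1, 2 and 3, and 5.77, 6.07 and 5.83% in ceramide replicates 1, 2 and 3. The control mean was 7.63 ± 0.262% and the ceramide mean 5.89 ± 0.155% (SD, n = 3 each). No ceramide library reached the lowest control library, and the ceramide library of lane 1 was the lower of its pair. With the identical Mir465c rows counted once the means were 6.42 ± 0.231% and 5.11 ± 0.158% (SD, n = 3 each). These shares are relative to the other miRNAs of a library. A rise of other miRNAs, fewer copies per exosome and fewer exosomes that carry the family therefore cannot be told apart. The cells themselves were not analysed here.

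Normalized CPM, a row's count relative to its library's total after edgeR's TMM scaling, serve as the level of a member. In control exosomes they spanned an 18.2-fold range, from 14744 ± 356 CPM for Mir470 to 809 ± 44.6 CPM for Mir880 (SD, n = 3 each). By mean share of counts Mir470 was the row of rank 16 and Mir741 that of rank 18 among all 1973 rows. Divided by hairpin length, the control order from high to low was Mir470, Mir741, Mir465c-1, Mir465, Mir871, Mir465b-1, Mir743, Mir881 and Mir880, the same order as without that division. The ranges of neighbours overlapped for Mir470 (192.8 to 201.9 CPM per base) and Mir741 (164.1 to 196.7), and for Mir465b-1 (48.2 to 52.9) and Mir743 (34.6 to 48.7). The other neighbours did not overlap. In ceramide exosomes the order per base was the same except that Mir465 stood at the level of Mir465c-1 (99.9 ± 6.55 and 98.5 ± 4.30) and Mir743 at that of Mir465b-1 (42.7 ± 7.93 and 40.8 ± 4.49), with overlapping ranges in both pairs (SD, n = 3 each).

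**Figure D1:**
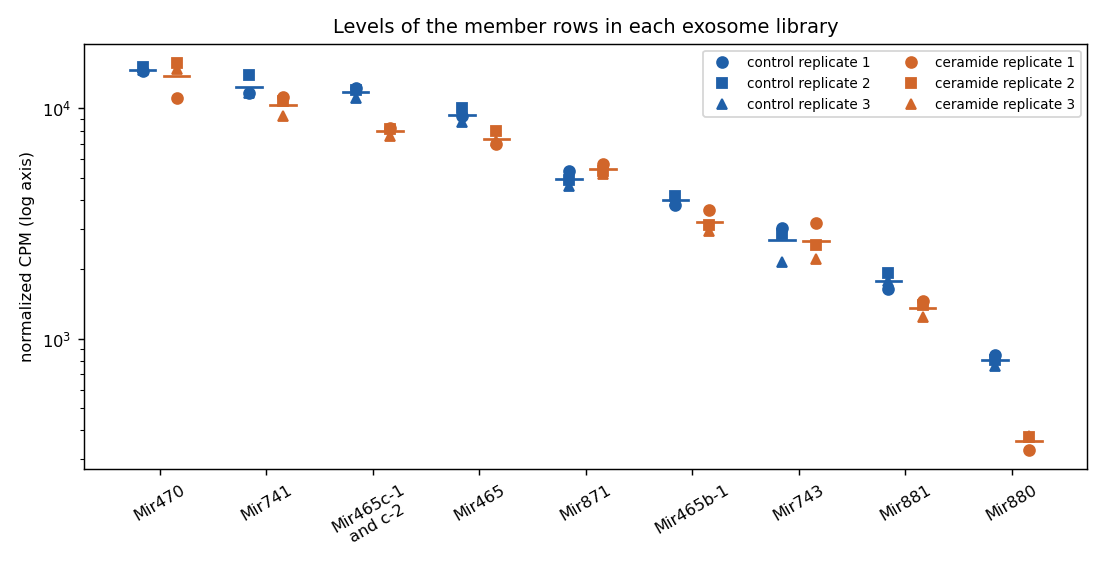
Normalized CPM (log axis) of the 9 distinct member signals in each library, ordered by control mean; symbols are libraries and short lines group means. Mir880 has both the lowest level and the widest gap between groups, from 763 or more in control to 378 or less in ceramide, while the groups overlap for Mir470, Mir871 and Mir743.

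The comparison of the groups asks which of these miRNAs differ in exosomes released under ceramide. A row was called where its Benjamini-Hochberg adjusted p over the 418 rows was at most 0.05 and its absolute log2 fold change at least 0.6, the thresholds of the study. Of the 10 member rows 1 (10.0%), Mir880, was called, lower in ceramide, where 8.37% of all tested rows were called lower. No member was called higher, against 3.11% of all tested rows. Of the 418 tested rows, 83 reached an adjusted p of at most 0.05 at any fold. Those that reached it with ceramide lower were 12.7% of all tested rows. Among the members, 5 of the 10 rows, or 4 of the 9 signals, reached it, all lower in ceramide. This count depended on the processing: of the 15 alternatives 1 (the lane as a term) left 1 row, 9 left 3 rows, 3 left 5 and 2 gave 7. Leaving out any single library other than ceramide replicate 1 left 3 rows, Mir880 and the identical Mir465c rows. The groups did not overlap, with ceramide lower, in 7 of the 10 rows (25.1% of all tested rows) and, with ceramide higher, in none (14.1%). The median log2 fold change was -0.32 over the 10 rows and -0.31 over the 9 signals, against -0.01 over all 418 rows. The 9 signals still count the miR-465 copies Mir465, Mir465b-1 and Mir465c-1 apart, so miR-465 keeps extra weight in these counts and medians. With miR-465 taken as 1 signal, those without overlap come down to Mir880, Mir881, Mir741 and miR-465. Those past the adjusted p come down to Mir880, Mir881 and miR-465. Mir470, Mir871 and Mir743 are in neither set. With the replicate number as a block, Mir880 was again the 1 member called, while the rows called in all went from 48 to 87.

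Mir880 encodes miR-880-5p and miR-880-3p. Its level was 852, 813 and 763 CPM in control replicates 1, 2 and 3 and 329, 374 and 378 CPM in ceramide replicates 1, 2 and 3. The 3 ceramide libraries lay close together, far below the lowest control library. Its mean of 809 ± 44.6 CPM in control fell with ceramide to 360 ± 27.4 CPM (SD, n = 3 each), or 44.5% of control, which gave for Mir880 a log2 fold change of -1.16 (edgeR quasi-likelihood test, SE 0.10, 95% interval -1.40 to -0.92, adjusted p = 0.0018). A total of 5169 counts over the 6 libraries lay behind it. The call held in each of the 15 alternative analyses. With the lane as a term it was -1.37 (edgeR quasi-likelihood test, adjusted p = 0.029), a value that rests on the lane 1 libraries.

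Mir881 lies 1336 bases from Mir880 on the same strand, at chrX:66801944-66802021, and its hairpin is 69.2% identical to that of Mir880. It had 1649, 1930 and 1783 CPM in control and 1458, 1398 and 1239 CPM in ceramide replicates 1, 2 and 3, without overlap between the groups. For Mir881 the log2 fold change was -0.39 (edgeR quasi-likelihood test, SE 0.10, 95% interval -0.63 to -0.15, adjusted p = 0.042), which passed on p but not on fold. Mir881 kept an adjusted p of at most 0.05 in 5 of the 15 alternatives (range 0.011 to 0.55), and with the lane as a term its estimate was -0.18.

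Ratios within a library need no normalization between libraries and were used to set Mir880 against the nearest hairpins of the cluster. These ratios were chosen after the values had been seen. Mir878, 900 bases away, is the closest neighbour. Per 100 counts of Mir878, Mir880 had 22.1, 19.7 and 20.2 counts in control and 12.2, 12.5 and 14.0 counts in ceramide replicates 1, 2 and 3. Per 100 counts of Mir881 it had 45.5 ± 5.35 in control and 26.6 ± 3.98 in ceramide, and per 100 counts of Mir463, which lies 1232 bases off on the other side, 37.1 ± 1.02 and 20.9 ± 4.68 (SD, n = 3 each). None of the 3 ratios overlapped between the groups, with mean log2 differences of -0.68, -0.78 and -0.85 (exact permutation test, two-sided, p = 0.1 for each, the smallest that 3 libraries against 3 allow, and 0.12 after adjustment over the 6 ratios computed). Relative to each of these 3 hairpins, Mir880 was lower in every ceramide library than in any control library. In the cluster as a whole, with identical rows counted once, Mir880 made up 1.08 ± 0.0491% of the counts in control and 0.575 ± 0.0564% under ceramide (SD, n = 3 each).

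The miR-465 genes are tandem copies, Mir465c-1, Mir465b-1, Mir465c-2 and Mir465, between chrX:66825955 and 66839125. The hairpins of Mir465c-1 and Mir465c-2 are 100% identical, those of Mir465b-1 and Mir465c-1 93.8% and those of Mir465 and Mir465c-1 84.1%. The Mir465c row had 12262, 11970 and 11129 CPM in control and 8235, 8117 and 7582 CPM in ceramide replicates 1, 2 and 3. The ceramide libraries were all lower, at 67.7% of the control mean. The log2 fold change of Mir465c-1 was -0.56 (edgeR quasi-likelihood test, SE 0.07, 95% interval -0.74 to -0.39, adjusted p = 0.0027), short of the fold threshold. It passed that threshold when control replicate 3 (-0.60) or ceramide replicate 1 (-0.61) was left out and when counts were scaled by library size only (-0.64), which raised the members called from 1 to 3. With the lane as a term Mir465c-1 no longer passed on p (-0.57, edgeR quasi-likelihood test, adjusted p = 0.063), the only one of the 15 alternatives in which it did not (range 0.00060 to 0.063).

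The row of Mir465 had 9282, 10027 and 8687 CPM in control and 7013, 7939 and 7229 CPM in ceramide replicates 1, 2 and 3. For Mir465 the log2 fold change was -0.34 (edgeR quasi-likelihood test, SE 0.09, adjusted p = 0.041). That p was at most 0.05 for Mir465 in only 4 of the 15 alternatives (range 0.0041 to 0.21), and it exceeded 0.05 when any single library was left out. Mir465b-1 had 3809, 4180 and 3979 CPM in control and 3619, 3123 and 2932 CPM in ceramide. Its log2 fold change was -0.31 (edgeR quasi-likelihood test, SE 0.10, adjusted p = 0.072, and 0.030 with the replicate block), and -0.07 for Mir465b-1 with the lane as a term. Each copy was lower in every ceramide library than in any control library.

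As a single signal, the sum of the 4 member rows, miR-465 had 36959 ± 1831 CPM in control and 26527 ± 958 CPM under ceramide (SD, n = 3 each). For this sum the log2 fold change came to -0.48 (edgeR quasi-likelihood test, SE 0.07, 95% interval -0.64 to -0.32, adjusted p = 0.0039). The sum holds the identical counts of Mir465c-1 and Mir465c-2 side by side, so the reads behind them entered it once for each row. With identical rows counted once, an alternative chosen after seeing the data, it was -0.40 (edgeR quasi-likelihood test, adjusted p = 0.015). Whether reads of the shared 3p miRNA also entered more than 1 of the remaining rows is not known, and this alternative would not remove them. Over the 16 alternatives the sum stayed between -0.55 and -0.37, under the fold threshold in each. Its adjusted p exceeded 0.05 with the lane as a term (0.11) and with upper-quartile factors (0.054, edgeR quasi-likelihood test). The copies share their 3p miRNA, but their counts differed by up to 68.9% within a library, and the rows Mir465b-1 and Mir465c-1 differ in a single base of the 5p miRNA. Mir465b-1 had 31.1, 34.9 and 35.8 counts per 100 counts of Mir465c-1 in control and 43.9, 38.5 and 38.7 in ceramide replicates 1, 2 and 3. The ratio of Mir465 to Mir465c-1 was likewise higher in ceramide, 92.8 ± 6.71 against 79.2 ± 4.15 per 100 counts (SD, n = 3 each). For both ratios the groups did not overlap (exact permutation test, two-sided, p = 0.1, adjusted 0.12). The study assigned reads to GENCODE miRNA genes with STAR's quantification modes GeneCounts and TranscriptomeSAM. GeneCounts takes up only reads with a unique place in the genome, whereas the identical Mir465c hairpins both held counts here. Which output became the deposited counts is not given in the sources used here, and the share of each arm in these rows is not known.

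**Figure D2:**
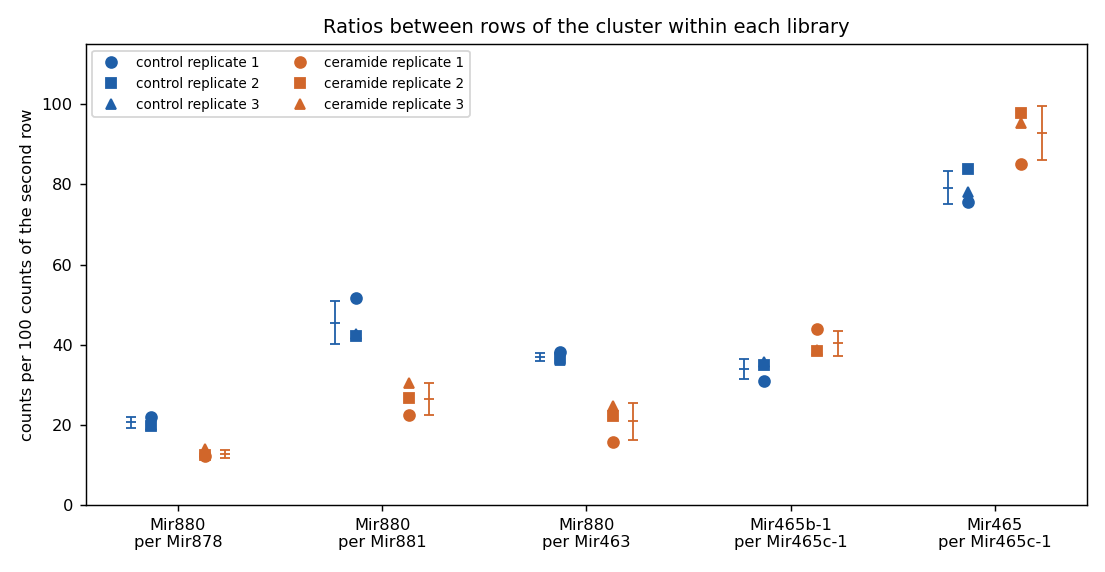
Counts of Mir880 per 100 counts of its neighbours Mir878, Mir881 and Mir463, and of 2 miR-465 rows per 100 counts of Mir465c-1, in each library; bars show the mean ± SD of a group. All 3 Mir880 ratios are lower in each ceramide library than in any control library, and both miR-465 ratios are higher.

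Mir741, the second most abundant member, had 11648, 13966 and 11681 CPM in control and 11180, 10743 and 9223 CPM in ceramide replicates 1, 2 and 3. The highest ceramide library came close to the lowest control library. The log2 fold change of Mir741 was -0.26 (edgeR quasi-likelihood test, SE 0.11, adjusted p = 0.13, and 0.029 with the replicate block), and with the lane as a term it was -0.06.

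Mir470, Mir871 and Mir743 overlapped between the groups. Mir470, the most abundant member, had 14462, 15144 and 14627 CPM in control and 11090, 15685 and 14756 CPM in ceramide replicates 1, 2 and 3. Its low ceramide value came from replicate 1 alone. The log2 fold change of Mir470 was -0.09 (edgeR quasi-likelihood test, SE 0.13, 95% interval -0.40 to 0.22, adjusted p = 0.62), 0.03 without ceramide replicate 1 and -0.38 with the lane as a term.

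Mir871 had 5372, 4904 and 4584 CPM in control and 5737, 5356 and 5198 CPM in ceramide replicates 1, 2 and 3. It was the only member with a positive estimate, 0.13 (edgeR quasi-likelihood test, SE 0.09, 95% interval -0.08 to 0.34, adjusted p = 0.30). Mir871 was higher in ceramide in each of the 3 pairs of libraries with the same number, and with the replicate block its estimate was 0.13 (edgeR quasi-likelihood test, 95% interval 0.01 to 0.26, adjusted p = 0.083), which was not called either. Within the cluster its part of the counts was 6.61 ± 0.465% in control and 8.66 ± 0.426% under ceramide (SD, n = 3 each), with no overlap between the groups. Such a part also rises where other rows of the cluster fall. That of Mir743b, a row outside the members, rose without overlap too, from 3.70 ± 0.245% to 4.37 ± 0.561% (SD, n = 3 each). The parts of Mir880, Mir878, Mir465c-1 and Mir465 fell without overlap.

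Mir743 had 3017, 2851 and 2148 CPM in control and 3181, 2549 and 2213 CPM in ceramide replicates 1, 2 and 3. Libraries with the same number were alike in Mir743, and its log2 fold change was -0.01 (edgeR quasi-likelihood test, SE 0.18, 95% interval -0.43 to 0.40, adjusted p = 0.97). Its sign was positive in 8 of 15 alternatives, including DESeq2's size factors and upper-quartile factors, so 8 or 9 of the 10 rows were lower depending on the scaling.

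Along the chromosome, the 18 rows of the cluster with more than 10 counts lay within 62.4 kb, all on the minus strand, between chrX:66776757 and 66839125. The 8 tested rows that are no members (Mir878, Mir883a, Mir883b, Mir743b, Mir742, Mir463, Mir471 and Mir465b-2) had log2 fold changes between -0.54 and -0.00, with a median of -0.31. None of the 8 was called, and Mir878 (-0.49, SE 0.08, adjusted p = 0.0074) and Mir883a (-0.43, SE 0.12, adjusted p = 0.044, edgeR quasi-likelihood test) passed on p alone. With the lane as a term neither did (edgeR quasi-likelihood test, adjusted p = 0.10 for Mir878 and 0.25 for Mir883a). Mir465b-2, whose hairpin is identical to Mir465b-1, repeated its counts. Mir743b gave -0.02 beside Mir743, with 95.7 ± 7.30 counts of Mir743 per 100 of Mir743b in control and 96.1 ± 4.25 in ceramide (SD, n = 3 each), a ratio that overlapped between the groups (exact permutation test, two-sided, p = 0.9).

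**Figure D3:**
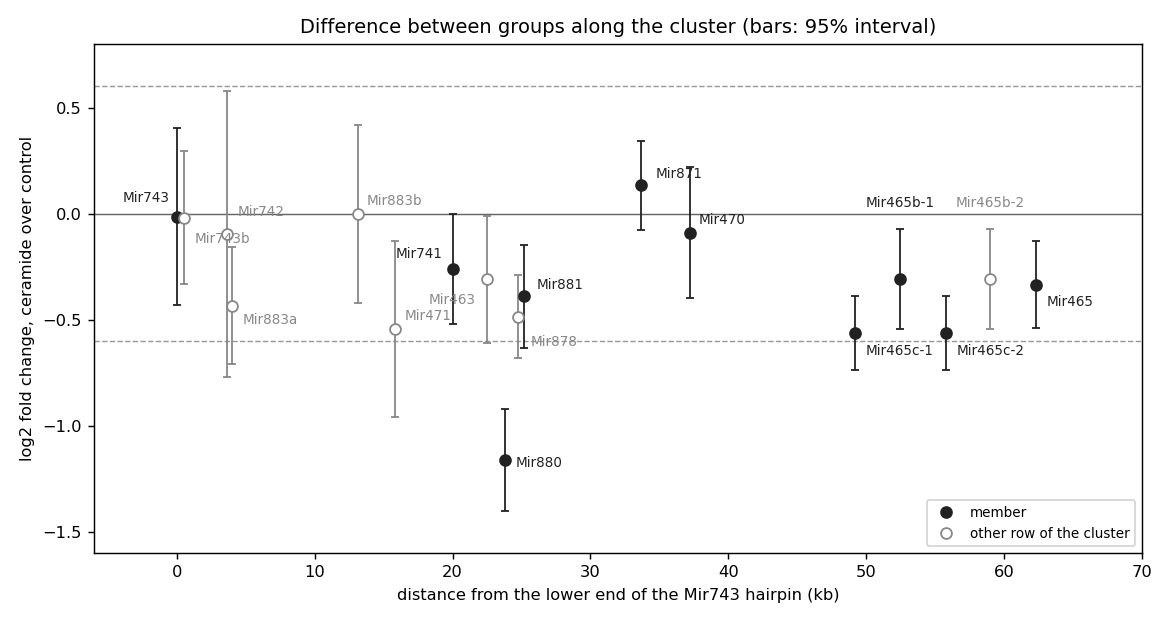
Log2 fold change of ceramide over control with its 95% interval for the 18 rows, against the distance in kb from the lower end of the Mir743 hairpin; filled points are members, dashed lines the fold threshold of 0.6. Mir880 at -1.16 is the only row beyond the threshold, with Mir878 at -0.49 and Mir881 at -0.39 close beside it.

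The remaining listed genes of the family that had a row were close to absent. Mir201 had 1 count and Mir547 had 5 counts over all 6 libraries. They lie 1149 kb beyond the cluster. At 3 counts per library, the limit that a count of 0 allows was 1.14 to 3.90 CPM for counting error alone. Mir465d, Mir509 and Mir890 had no row under these names in GENCODE M21, so their level could not be read.

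The 100 other rows of chromosome X gave 33 tested rows, of which 7 (21.2%) were called lower and 1 (3.03%) higher, against 8.37% and 3.11% of all tested rows, with a median log2 fold change of -0.17. Of 6 testis-enriched miRNA genes on other chromosomes, 4 were tested, and all 4 estimates were negative (median -0.60), as were 50.7% of all tested rows. Mir34b, a p53-linked miRNA, fell by 0.80 on the log2 scale (edgeR quasi-likelihood test, SE 0.09, adjusted p = 0.0026). Mir34c had -0.59 (edgeR quasi-likelihood test, SE 0.09, adjusted p = 0.0053), short of the fold threshold. Mir449c (-0.62, adjusted p = 0.091) and Mir449a (-0.14, adjusted p = 0.58, edgeR quasi-likelihood test) did not pass on p.

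Outside the family, the rows whose log2 CPM over the 6 libraries ran most closely with that of Mir880 were Mir361 (Pearson's r = 0.998), Mir221 (0.997) and Mir124a-1 (0.994). With 6 libraries in 2 groups these values mostly follow the difference between the groups. Mir361 (-0.95) and Mir221 (-1.20) were called lower like Mir880, and Mir124a-1, with 160 counts in all, had a log2 fold change of -0.43 (edgeR quasi-likelihood test, SE 0.15, adjusted p = 0.16). Within the cluster, Mir878 and Mir465c-1 came nearest to Mir880 (both 0.97), and Mir871 ran opposite to it (-0.64).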

How the data were processed

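The authors demultiplexed the reads with bcl2fastq, trimmed them with Cutadapt 1.15, aligned and assigned them to genes on GRCm38 with STAR 2.5.3a (GeneCounts and TranscriptomeSAM) and deposited raw counts per GENCODE miRNA gene. Strand setting, reads with several matches and molecular identifiers are not given in the sources used here, so intervals cover counting error and library spread as the counts show them. Groups came from the labels. Of 1973 rows, 1894 matched GENCODE M21. All rows were tested together with edgeR 4.0.16 (R 4.3.3) by the quasi-likelihood test after TMM normalization and filterByExpr, with condition as the only term. P-values were adjusted by Benjamini-Hochberg, and standard errors come from the F statistic. Alternatives used DESeq2 1.42.0, limma-voom (limma 3.58.1), other scalings, no filter, a replicate block, a lane term, joined rows and each library left out. The combined miR-465 row is the sum of its rows, since they differed by over 5%. Members and lists were chosen with earlier results of these data known. All members are named, and the 3 rows most like Mir880 by Pearson correlation. Replicate numbers were taken to pair the libraries in the replicate block, not in the main test. Deviations from group means correlated at 0.57, 0.40 and 0.74 for same numbers and at -0.57 to 0.09 for different ones. Deviations within a group cancel out, so positive values for same numbers by themselves push those for different numbers down. The procedure was tested on simulated counts.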

Additional observations from a re-analysis of the deposited data

How the results depend on the processing

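Mir880 was called in all 15 alternatives, with log2 fold changes between -1.37 and -1.09. The number of members called was 1 in 12 of the 15 alternatives and 3 with library size alone, and 1 to 3 when each library was left out. Over all rows 48 were called, 87 with the replicate block, 29 with the lane as a term and 28 to 55 when each library was left out, with 28 without control replicate 1. The replicate block changed the call of no member. Mir743 changed sign with DESeq2's size factors in edgeR (0.0543), upper-quartile factors (0.0443), DESeq2 (0.0007) and the lane term (0.0764), and lay between -0.19 and 0.10 when each library was left out. Mir470 lay between -0.20 and 0.0269 in the same fits. The difference in the members' summed share was -1.74 percentage points, and -1.30 with identical rows once, which removes a duplicate by construction. The sum of miR-465 rows with identical rows counted once was chosen after seeing the data. The causes of the other changes were not tested. The depth of 800810 to 2760015 counts leaves Mir201 and Mir547 without a testable level.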
